A study of Mus musculus with 25 samples.

Results

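The voltage-gated potassium channel genes of spinal cord cholinergic neurons were examined in *Bmal1*-deleted and control mice. They were taken as the rows of the count table whose symbol names a pore-forming subunit of the *Kcna*, *Kcnb*, *Kcnc*, *Kcnd*, *Kcnf*, *Kcng*, *Kcnh*, *Kcnq*, *Kcns* or *Kcnv* subfamily and whose counts summed to at least 10 over the 24 immunoprecipitates (IPs). Of 40 rows with such a symbol, 39 passed this limit, among 21738 genes that passed it and 50559 genes in all. The genes just inside were *Kcna7* with 12 counts, *Kcnv2* with 16, *Kcnq1* with 22 and *Kcnh4* with 40, and the gene outside was *Kcna3* with 1 count over the 24 IPs.

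Ribosome-bound mRNA was obtained from spinal cords of male mice aged 6 mo by precipitation of a hemagglutinin (HA) tag that *ChAT-Cre* places on the ribosomes of cells expressing choline acetyltransferase. Controls were *ChAT-Cre*;*RiboTag* fx/+ mice, and *ChAT-BKO* mice were *ChAT-Cre*;*RiboTag* fx/+;*Bmal1* fx/fx. Both genotypes therefore carried the Cre driver and the tagged ribosome, and the control mice did not carry the floxed *Bmal1* allele. Each genotype was sampled at ZT8, in the light period, and at ZT20, in the dark period, with 6 mice in each of the 4 groups and 1 spinal cord per library. A single input library, pooled from both genotypes, measured RNA before precipitation.

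Voltage-gated potassium channels open when a neuron depolarizes and carry the outward current that repolarizes the membrane, sets the width of the action potential and limits repetitive firing. Channels of the Kv1 type (*Kcna*) open at low voltage and flank the nodes of myelinated axons, Kv2 (*Kcnb*) carries the slow delayed rectifier of the soma, Kv3 (*Kcnc*) opens and closes fast and serves high firing rates, and Kv4 (*Kcnd*) carries the transient A-type current. *Kcnq* genes encode the channels of the M-current, and *Kcnh* genes those of the EAG, ERG and ELK families. The products of *Kcnf*, *Kcng*, *Kcns* and *Kcnv* form no working channel alone: these silent subunits assemble with Kv2 subunits and change the voltage range and speed of the joint channel.

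Total counts ran from 4.04 to 31.7 M over the IPs, with a median of 12.0 M, and the input held 7.40 M. Levels are given as normalized counts, in CPM (counts per M of total counts) on library sizes scaled by TMM, and 0 counts in a library allowed up to 0.0947 to 0.743 CPM (3 counts of the total, counting error only). *Bmal1*, listed as *Arntl*, averaged 8.44 CPM in control and 2.64 CPM in *ChAT-BKO* libraries at ZT8, and 8.73 and 1.92 CPM at ZT20, and no *ChAT-BKO* library reached the lowest control. All 7 cholinergic markers were above the input, with a median log2 ratio of 2.36, whereas none of the oligodendrocyte, astrocyte, microglial, endothelial, excitatory or inhibitory neuron markers was. All 5 fast or alpha and 3 of 5 gamma or slow motor neuron markers were above it. Outside the muscle list, the markers called in edgeR were *Htr1d* (gamma or slow), lower in *ChAT-BKO* over both times by a log2 fold change of -0.34, and the endothelial *Cldn5*, higher at ZT20 by 0.73. The 20 skeletal muscle markers summed to 30.1 to 56.1 CPM in controls and 25.5 to 130 CPM in *ChAT-BKO* libraries at ZT20, and to 26.3 to 142 CPM and 26.3 to 215 CPM at ZT8.

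The channel mRNA of these neurons was led by a silent subunit. To compare genes, CPM were divided by the kilobases (kb) covered by a gene's exons. *Kcng4*, which encodes the silent subunit Kv6.4, stood at 183 ± 18.9 CPM per kb (SD, n = 24) and was the highest of the 39 genes in 24 of 24 libraries. *Kcna1*, encoding the axonal subunit Kv1.1, stood at 112 ± 4.50 CPM per kb. *Kcnh2*, the ERG channel gene known for cardiac repolarization, was at 68.0 ± 3.93 CPM per kb and *Kcna2*, the usual partner of *Kcna1*, at 57.4 ± 4.10 CPM per kb.

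**Figure D1:**
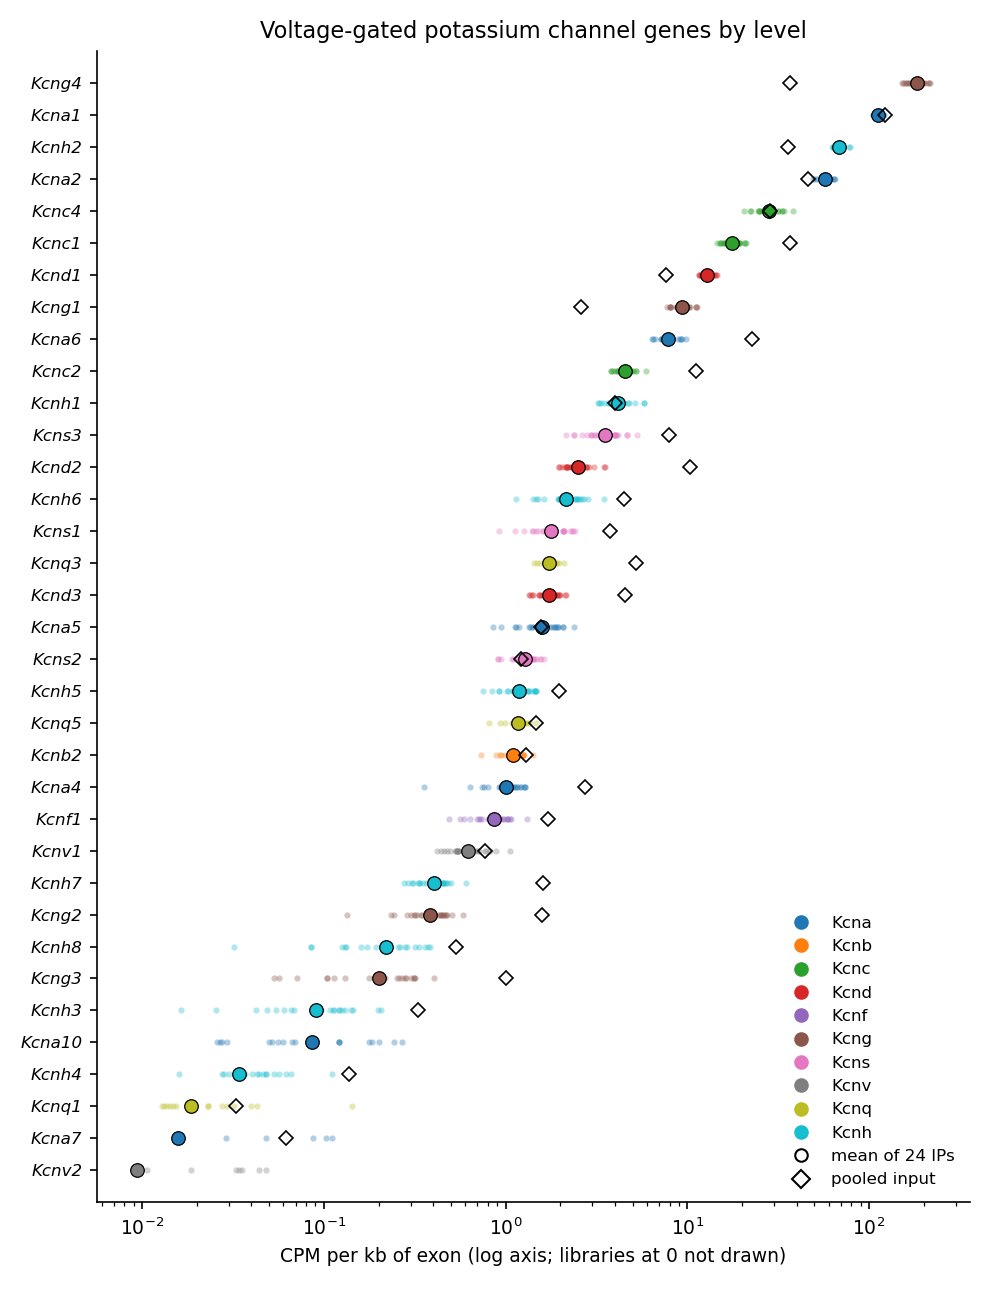
Level of the voltage-gated potassium channel genes reported here in CPM per kb of exon on a log axis. Small points are the 24 immunoprecipitates, outlined circles their mean and open diamonds the pooled input. *Kcng4* leads at 183 CPM per kb, the lowest genes fall under 0.1 CPM per kb, and *Kcng4* and *Kcng1* lie far to the right of their input values.

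Members of a subfamily differed widely in level. Among the Kv3 genes, *Kcnc4* was at 28.0 ± 4.14, *Kcnc1* at 17.6 ± 1.91 and *Kcnc2* at 4.53 ± 0.52 CPM per kb. *Kcna6* was the third Kv1 gene at 7.80 ± 0.88 CPM per kb, ahead of *Kcna5* at 1.59 and *Kcna4* at 1.01 CPM per kb. *Kcnd1* led the A-type genes at 12.9 ± 0.91 CPM per kb, over *Kcnd2* at 2.50 and *Kcnd3* at 1.74 CPM per kb. Of the M-current genes, *Kcnq3* was at 1.74 ± 0.15 and *Kcnq5* at 1.18 ± 0.14 CPM per kb. After *Kcnh2*, the *Kcnh* genes fell to *Kcnh1* at 4.16 and *Kcnh6* at 2.16 CPM per kb.

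Among the silent subunits, *Kcng1* was second at 9.39 ± 1.04 CPM per kb, followed by *Kcns3* at 3.51, *Kcns1* at 1.79, *Kcns2* at 1.28, *Kcnf1* at 0.86 and *Kcnv1* at 0.62 CPM per kb. The lowest 5 of all were *Kcna10*, *Kcnh4*, *Kcnq1*, *Kcna7* and *Kcnv2*, at 0.087 to 0.00933 CPM per kb. *Kcnq1* and *Kcnv2* are best known from heart and inner ear and from photoreceptors. Of the 39 genes, 19 averaged 10 CPM or more, 13 lay between 1 and 10 CPM and 7 were under 1 CPM, and 32 were above 0 in all 24 libraries. The coefficient of variation of the 19 higher genes ran from 4.01% for *Kcna1* to 22.8% for *Kcns3*, with a median of 11.3%, beside 9.97% for all genes at this level.

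Summed over its members, the *Kcng* subfamily held 28.8% of the channel mRNA per kb, *Kcna* 27.0%, *Kcnc* 24.2%, *Kcnh* 11.4%, *Kcnq* 3.26% and *Kcnd* 2.56%. The order of the first pair was not fixed, since in controls at ZT20 *Kcna* held 28.0% and *Kcng* 26.9%, and with longest transcripts as lengths they held 27.3% and 26.1% over all libraries. The 10 silent subunits together held 30.0 ± 1.72% (SD, n = 24) of the sum, against 9.82% in the input. These are mRNA levels and do not give the stoichiometry of proteins.

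**Figure D2:**
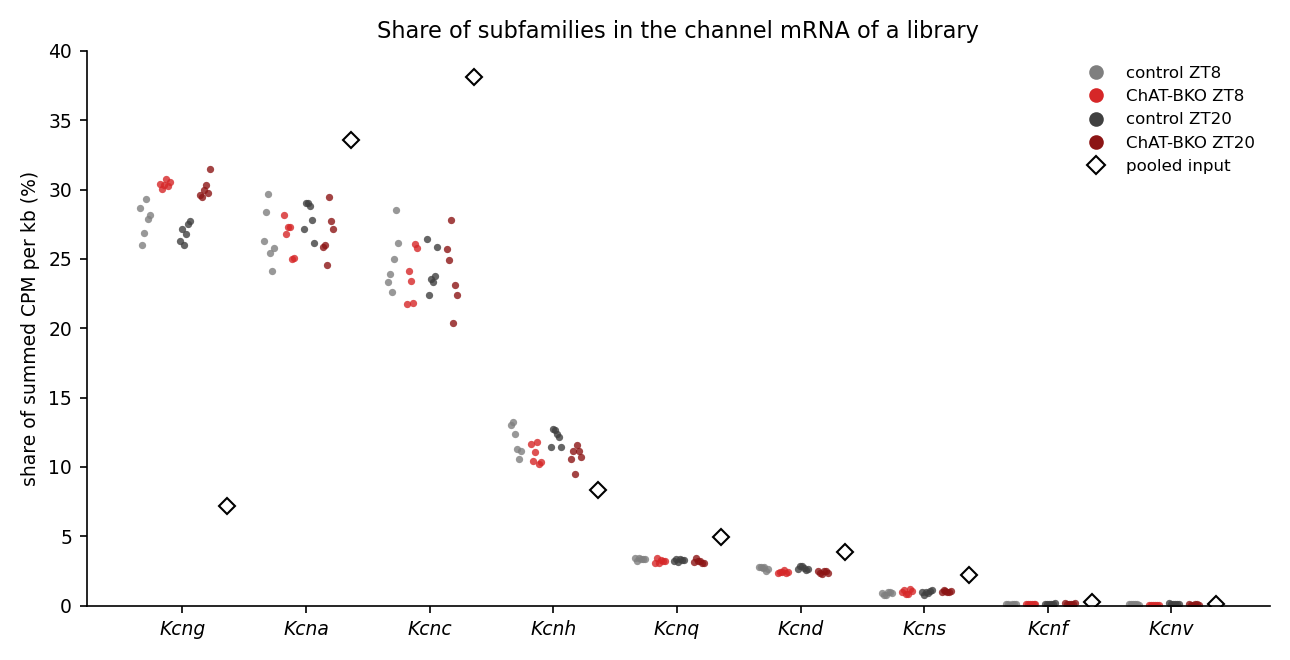
Share of the subfamilies drawn in the summed CPM per kb of the 39 genes (%), with 1 point per library in the 4 groups and an open diamond for the pooled input. *Kcng* holds 28.8% of the sum in the immunoprecipitates and 7.19% in the input, whereas the Kv1 and Kv3 genes hold larger shares in the input.

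Enrichment over the input was greatest for 2 *Kcng* genes. *Kcng4* had a log2 ratio of IP to input of 2.32, from 2.05 to 2.56 over the libraries, and *Kcng1* of 1.84, from 1.55 to 2.11. The fast or alpha motor neuron markers had a median log2 ratio of 2.56. *Kcnh2* followed at 0.93, *Kcnd1* at 0.76 and *Kcna2* at 0.31, and all 24 libraries lay above the input for these 3 genes. *Kcns2*, *Kcnh1* and *Kcna5* lay close to the input, with libraries on both sides of it.

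The other channel genes were mostly below the input when the input was left out of the TMM scaling. *Kcng3*, *Kcnd2*, *Kcnh7* and *Kcng2* had log2 ratios between -2.22 and -1.98. Of the Kv3 genes, *Kcnc4* was at -0.03, *Kcnc1* at -1.06 and *Kcnc2* at -1.31. Of 34 channel genes with 10 or more counts in the input, 10 were above it, with a median of -0.85, and the median over 14954 genes with such counts was -0.53. The input is 1 library, so its own sampling between mice cannot be given, and these ratios have no test. Over all 39 genes the median was -0.72, and it was -0.27 when the input entered the TMM scaling. The side of the input on which genes with ratios near 0 lie depends on this choice, and genes above it were not counted under that scaling. *Kcna10* and *Kcnv2* had 0 counts in the input, which allows 0.406 CPM, above their own mean in the IPs.

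**Figure D3:**
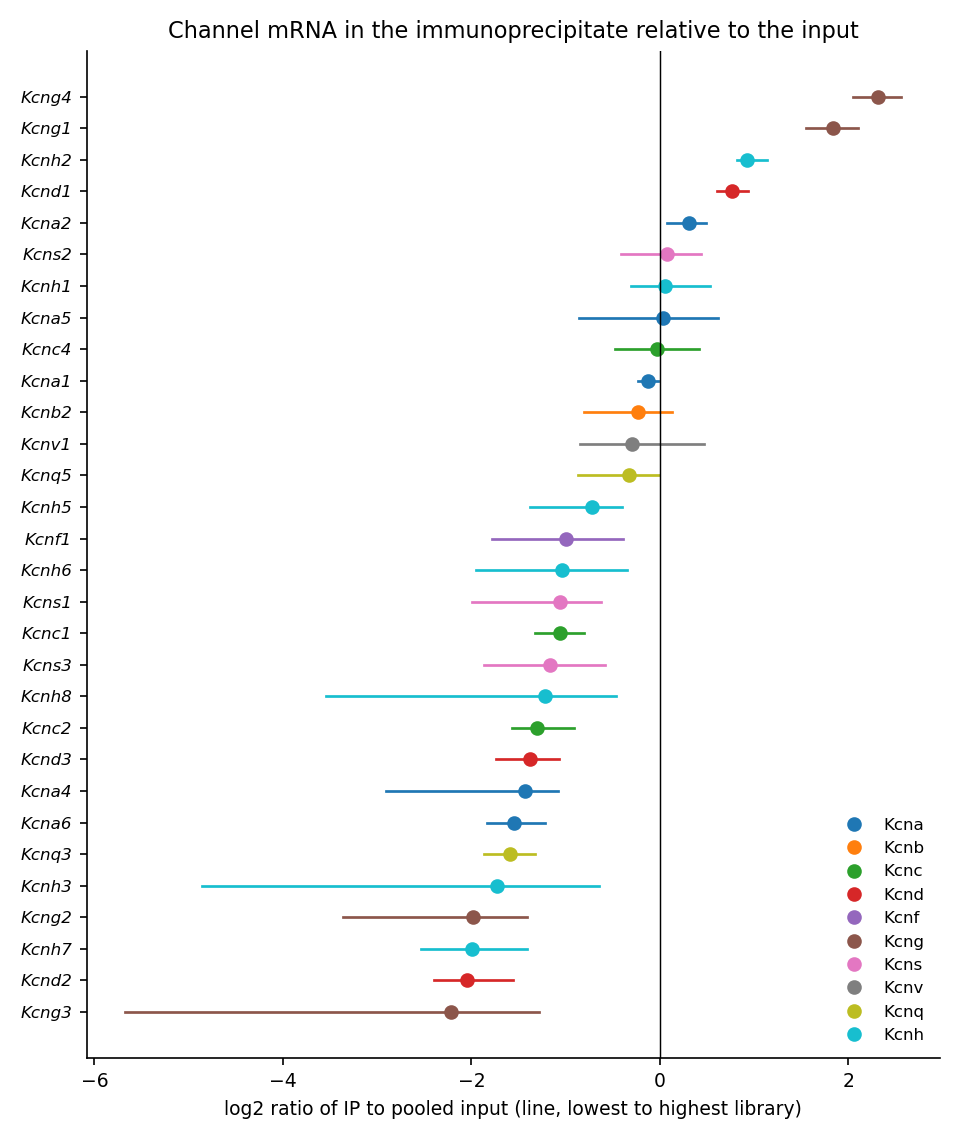
Log2 ratio of the mean CPM in the immunoprecipitates to the CPM in the pooled input for the genes reported here with 10 or more input counts. Points are ratios of the mean and lines run from the lowest to the highest of 24 libraries, coloured by subfamily. *Kcng4* and *Kcng1* stand at 2.32 and 1.84, above the other genes drawn.

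To learn whether deletion of *Bmal1* changed channel expression, *ChAT-BKO* neurons were compared with controls at each time point with edgeR, on 12 libraries each. At ZT20, *Kcng4* was higher in *ChAT-BKO* neurons and was the 1 of 39 channel genes with an adjusted p under 0.05, whereas 0.23% of all genes tested passed. An unadjusted p under 0.05 was reached by 6 of 39 channel genes (15.4%) and by 6.28% of all genes. *Kcna7* was among the 6, with only 1 count in controls and 7 in *ChAT-BKO*, too few for a fold change. At ZT8, 0 of 39 passed, beside 0.184% of all genes, and 4 (10.3%) had an unadjusted p under 0.05, beside 4.83% of all genes. DESeq2 and limma voom also called 0 at ZT8, each with 5 at an unadjusted p under 0.05. The median log2 fold change of the 39 genes was -0.04 at ZT8 and 0.06 at ZT20, and that of all genes was within 0.01 of 0.

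*Kcng4* lies on chr8:119623854-119635680 of GRCm38 (mm10), on the minus strand, and has an exon length of 3.81 kb. The 250 bases before its RefSeq start site (GRCm38.p6, chr8:119635681-119635930, minus strand) are shown because *Kcng4* was the channel gene called at ZT20 and BMAL1 acts on DNA at E-boxes. Capitals mark the match to CANNTG, the general E-box.

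Kcng4: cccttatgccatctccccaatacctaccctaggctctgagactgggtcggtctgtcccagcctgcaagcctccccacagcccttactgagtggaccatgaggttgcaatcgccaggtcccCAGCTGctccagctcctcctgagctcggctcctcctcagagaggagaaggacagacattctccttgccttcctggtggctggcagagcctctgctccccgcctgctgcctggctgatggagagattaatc

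This stretch holds 1 CANNTG, with the letters CAGCTG, starting 130 bases before the start site. CACGTG, the E-box bound by the BMAL1 and CLOCK pair, was searched on both strands of RefSeq windows from 250 bases before to 50 after each start, which were found for 24 of the 39 genes. CACGTG was in a window of 1 of these 24 genes (4.17%), *Kcnh4*, and in 8.09% of all 27025 genes with a window. CANNTG, which includes CACGTG, was in windows of 17 of 24 (70.8%) and of 75% of all genes. Such matches are letters in a short window and say nothing on binding.

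*Kcng4* stood at 579 CPM in the lowest, 617 in the median and 651 in the highest of the 6 control libraries at ZT20, and at 671, 725 and 824 CPM in *ChAT-BKO*. All 6 *ChAT-BKO* libraries were above all 6 controls, and no other channel gene separated the groups in this way at either time. The share of all genes tested that separated the groups in this way was not computed, so this count has no background beside it. The log2 fold change was 0.25 (SE 0.05, edgeR adjusted p = 0.0479), or 1.19-fold. The exact permutation test of the means gave p = 0.00216 (two-sided, unadjusted, n = 6 against 6), the smallest it can give. That value follows from the separation of the groups and is not further support. At ZT8, *Kcng4* was at 607, 692 and 753 CPM in controls and at 714, 745 and 812 CPM in *ChAT-BKO*. Here 2 of 6 *ChAT-BKO* libraries were above all controls, and the log2 fold change was 0.16 (SE 0.06, edgeR adjusted p = 0.882; exact permutation p = 0.0281, n = 6 against 6). The difference between the effects was 0.11 on the log2 scale (SE 0.08, 95% CI -0.06 to 0.27, edgeR adjusted p = 1), so the effects were not shown to differ between time points.

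The ZT20 call lay close to the threshold. It was lost when any 1 of 9 of the 12 libraries was left out (control replicates 1 to 5 and *ChAT-BKO* replicates 1, 2, 3 and 6), with adjusted p between 0.0712 and 0.161 from edgeR. With the mean log2 CPM of the muscle markers as a covariate, the log2 fold change was 0.17 (edgeR adjusted p = 0.727). Of 21 alternatives tried, these 10 lost the call and 11 kept it, DESeq2 and limma voom among the 11. At ZT20, 17 of the 20 muscle markers were higher in *ChAT-BKO*, 3 of them with an adjusted p under 0.05 from edgeR, the median log2 fold change was 1.92, and none was at 0 in all libraries. Their part in the *Kcng4* value at ZT20 was not tested beyond this fit. None of the 5 fast or alpha motor neuron markers was called at ZT20, and their median log2 fold change was -0.03, with 2 of the 5 at an unadjusted p under 0.05 in edgeR, *Chodl* at -0.15 and *Spp1* at 0.16. Over both times 3 of the 5 had such a p and none was called, with *Chodl* at -0.14, *Calca* at -0.28 and *Spp1* at 0.14. Their part in the *Kcng4* value was not tested. Fewer cells of a type and less RNA per cell cannot be told apart in these libraries.

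**Figure D4:**
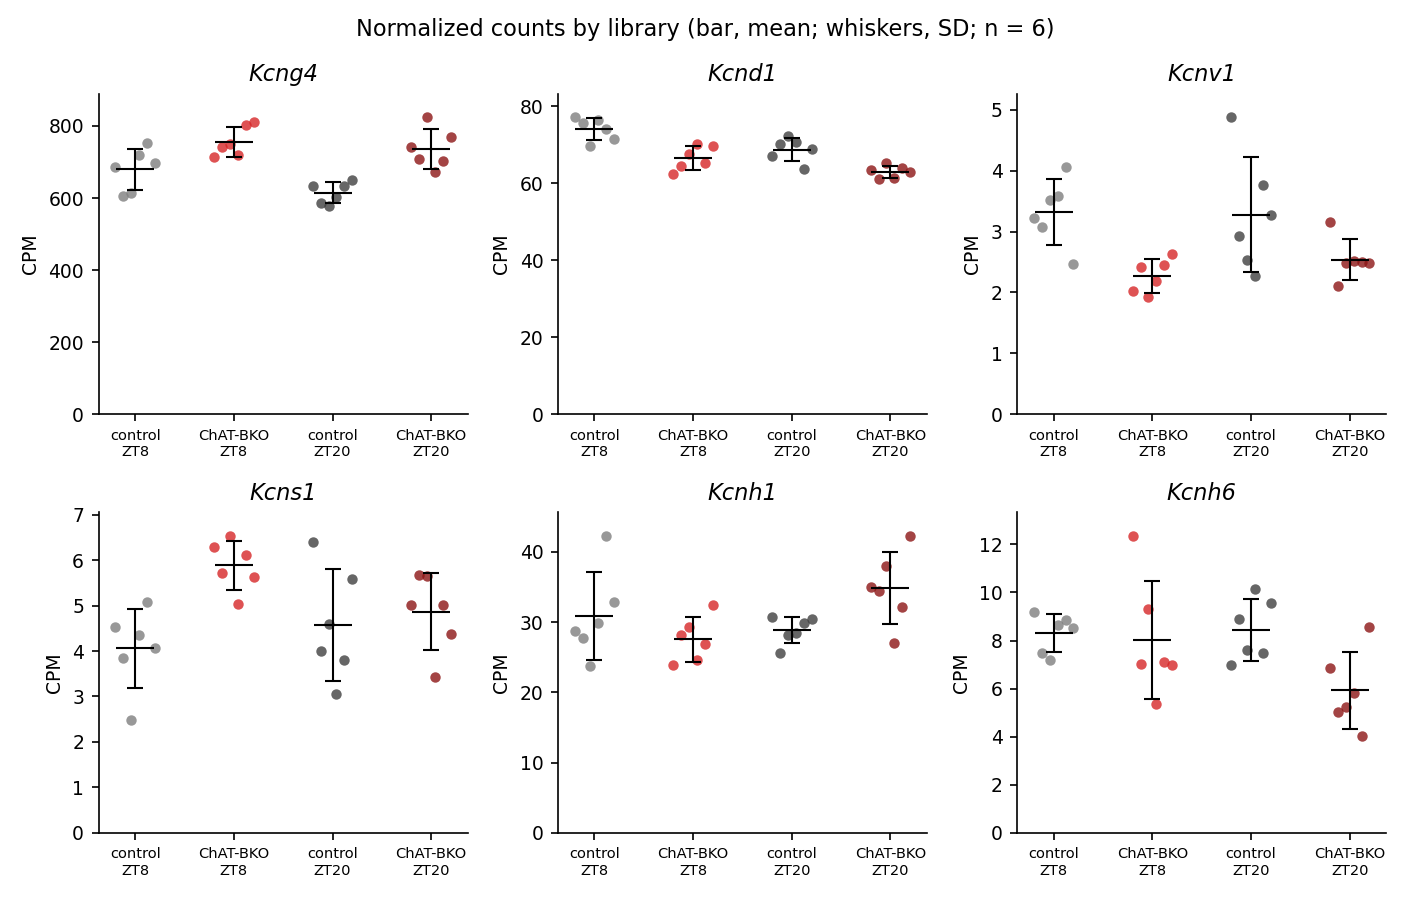
CPM of 6 channel genes in each library of the 4 groups (n = 6), with the mean as a bar and the SD as whiskers, on axes that start at 0. *Kcng4* separates the genotypes at ZT20, *Kcnd1* is lower in most *ChAT-BKO* libraries at both times, and the other 4 genes overlap between genotypes.

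Over both time points, on all 24 libraries, *Kcng4* was higher and *Kcnd1* lower in *ChAT-BKO* neurons, and these 2 of 39 channel genes passed an adjusted p under 0.05, beside 0.653% of all genes. *Kcng4* averaged 647 CPM in the control libraries and 746 CPM in the *ChAT-BKO* libraries, a log2 fold change of 0.21 (SE 0.04, edgeR adjusted p = 0.00367). This call held under all 32 alternatives tried, with log2 fold changes between 0.19 and 0.22. Of all 39 genes, 7 (17.9%) had an unadjusted p under 0.05, 3 higher and 4 lower, beside 7.28% of all genes. *Kcna7*, with 12 counts over the 24 IPs, was again among them.

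*Kcnd1*, the gene of the A-type subunit Kv4.1, was at 69.7 CPM in the lowest, 74.7 in the median and 77.1 in the highest control at ZT8, and at 62.3, 66.4 and 70.2 CPM in *ChAT-BKO*. At ZT20 it was at 63.5, 69.5 and 72.1 CPM in controls and at 61.1, 63.1 and 65.3 CPM in *ChAT-BKO*. At ZT8, 5 of 6 *ChAT-BKO* libraries were below all controls, and at ZT20 4 of 6. *Kcnd1* was named for its p, so these counts repeat that choice, and their share over all genes was not computed. The log2 fold change over both times was -0.14 (SE 0.03, edgeR adjusted p = 0.0329), after -0.15 at ZT8 and -0.13 at ZT20 (edgeR adjusted p = 0.799 and 0.699). The call was lost without any 1 of 11 of the 24 libraries, with adjusted p between 0.0525 and 0.0725. These were replicates 1 and 4 of controls and 1 and 2 of *ChAT-BKO* at ZT8, and replicates 2, 3, 4 and 6 of controls and 1, 2 and 4 of *ChAT-BKO* at ZT20. It was also lost when no filter on low counts was used (edgeR adjusted p = 0.0642). The other A-type genes did not pass.

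Several silent and EAG-type subunits had small unadjusted p values without passing the adjustment. They were named for having among the 3 smallest p in a comparison. The counts of separated libraries below therefore repeat that choice and are not further support. The share of all genes with such counts was not computed. *Kcnv1*, the gene of the silent subunit Kv8.1, was at 2.46, 3.37 and 4.06 CPM (lowest, median and highest) in controls and 1.92, 2.30 and 2.63 CPM in *ChAT-BKO* at ZT8. At ZT20 it was at 2.27, 3.10 and 4.88 CPM in controls and 2.11, 2.49 and 3.16 CPM in *ChAT-BKO*. At ZT8, 5 of 6 *ChAT-BKO* libraries were below all controls, and at ZT20 1 was. Its log2 fold change was -0.53 at ZT8 (SE 0.16, edgeR adjusted p = 0.592) and -0.45 over both times (SE 0.12, edgeR adjusted p = 0.0942).

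*Kcns1*, whose silent subunit Kv9.1 is known from sensory neurons, was at 2.49, 4.21 and 5.08 CPM in controls and at 5.04, 5.92 and 6.54 CPM in *ChAT-BKO* at ZT8. There, 5 of 6 *ChAT-BKO* libraries were above all controls, with a log2 fold change of 0.53 (SE 0.14, edgeR adjusted p = 0.364). At ZT20 the groups overlapped, with a log2 fold change of 0.11 (SE 0.18, edgeR adjusted p = 0.954).

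*Kcnh6*, an ERG channel gene, was at 6.97, 8.24 and 10.1 CPM in controls and at 4.05, 5.52 and 8.57 CPM in *ChAT-BKO* at ZT20. Of the 6 *ChAT-BKO* libraries, 5 were below all controls, with a log2 fold change of -0.51 (SE 0.15, edgeR adjusted p = 0.331). *Kcnh1*, the EAG channel gene, was at 25.7, 29.1 and 30.7 CPM in controls and 27.1, 34.7 and 42.3 CPM in *ChAT-BKO* at ZT20. Here 5 of 6 *ChAT-BKO* libraries were above all controls, with a log2 fold change of 0.26 (SE 0.09, edgeR adjusted p = 0.482). At ZT8, *Kcnh1* had a log2 fold change of -0.15 and *Kcnh6* of -0.04, both with an adjusted p of 1.

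*Kcna7*, known from skeletal muscle and heart, had 0 counts in controls and 4 in *ChAT-BKO* at ZT8, and 1 and 7 counts at ZT20. Its counts came from 5 of 24 libraries, which is too few for a fold change. The mean log2 CPM of the muscle markers was 2.65 in *ChAT-BKO* replicate 4 at ZT8. It was 1.90, 1.87 and 1.97 in *ChAT-BKO* replicates 1, 3 and 6 at ZT20, and -0.25 in control replicate 1 at ZT20. The highest value in a library without *Kcna7* counts was 1.80, in control replicate 2 at ZT8. A link between the 2 was not tested.

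**Figure D5:**
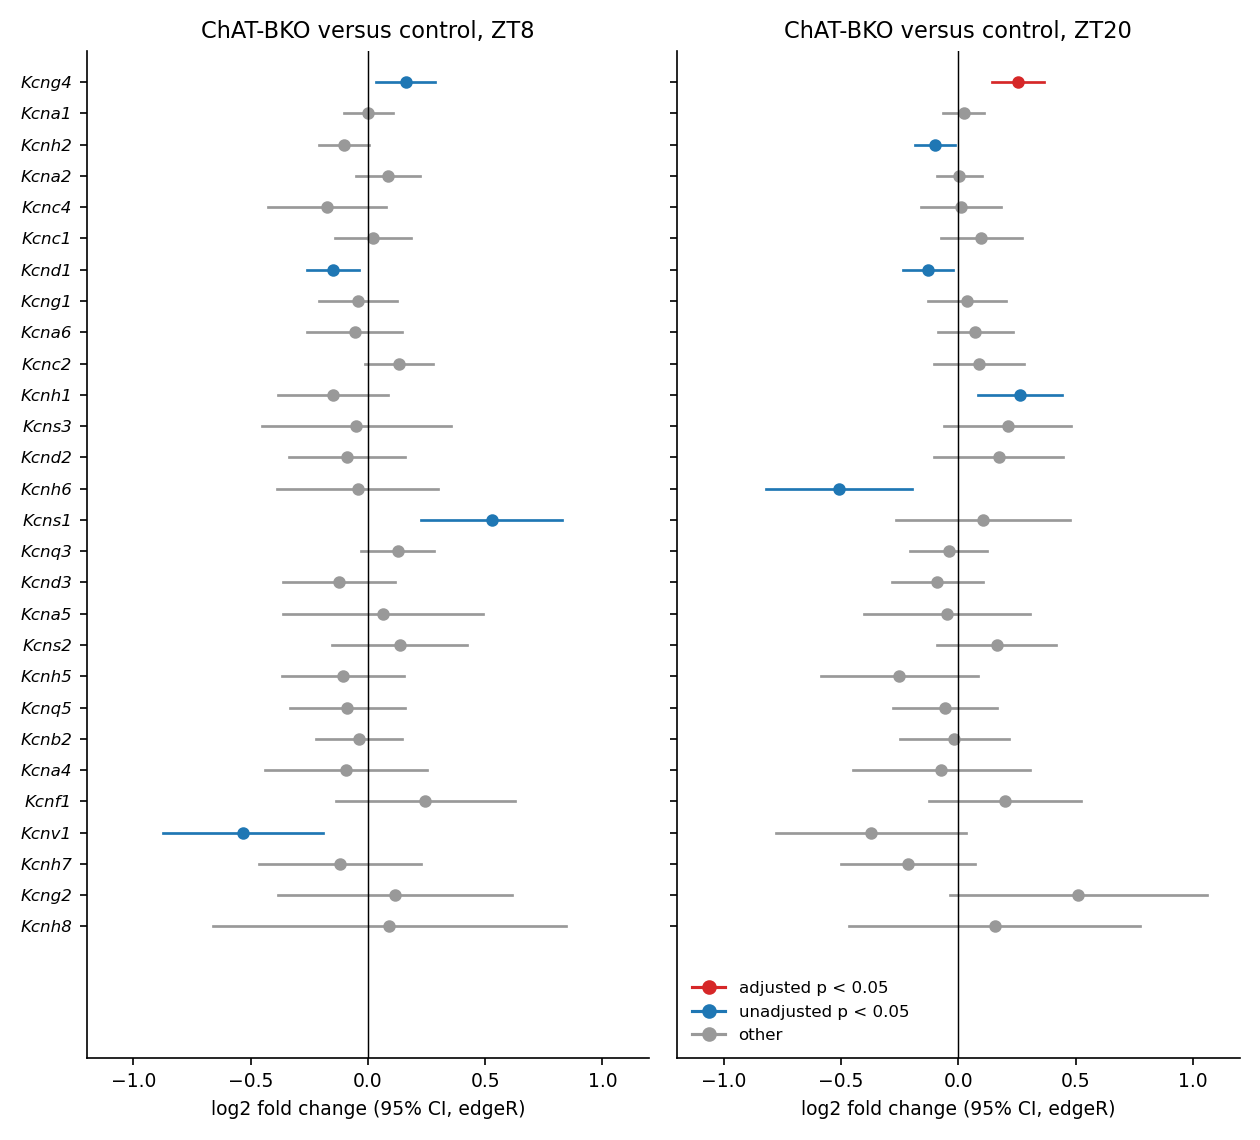
Log2 fold change of *ChAT-BKO* over control at ZT8 and ZT20 for the channel genes reported here with a mean of at least 1 CPM, ordered by level per kb. Points are edgeR estimates and lines their 95% CI. *Kcng4* at ZT20 is the gene with an adjusted p under 0.05 (red), and the intervals widen towards the lower genes.

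For the leading channel genes the data set narrow limits on a genotype effect. All 19 genes of at least 10 CPM had a 95% CI within 0.5 of 0 on the log2 scale at ZT8, at ZT20 and over both times, and 16 of the 19 were within 0.25 over both times. *Kcna1* had a log2 fold change over both times of 0.01 (95% CI -0.05 to 0.07) and *Kcna2* of 0.04 (95% CI -0.04 to 0.13). *Kcng1*, the silent subunit gene next to *Kcng4* in level, had -0.00 (95% CI -0.12 to 0.12). *Kcnh2* was lower by a log2 fold change of -0.10 (95% CI -0.16 to -0.04, edgeR adjusted p = 0.168).

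The share of *Kcng* genes in the channel mRNA per kb ran from 26.0% to 29.3% in controls and from 30.1% to 30.8% in *ChAT-BKO* at ZT8, and from 26.0% to 27.7% and 29.4% to 31.5% at ZT20. The genotypes did not overlap in this share at either time. Nor did they in the *Kcnd* share at ZT20 (2.55% to 2.90% in controls and 2.29% to 2.50% in *ChAT-BKO*). The same held for the *Kcnv* share at ZT8 (0.081% to 0.121% and 0.061% to 0.079%). The *Kcnd* share overlapped at ZT8 (2.52% to 2.81% and 2.35% to 2.58%), as did the *Kcnv* share at ZT20 (0.085% to 0.159% and 0.070% to 0.104%). All other subfamily shares overlapped at both times. How often sums over other sets of genes separate the genotypes was not computed, so these cases have no background. Shares of a library have a fixed sum and are not independent of each other. The *Kcng* share is set largely by *Kcng4*, so it repeats the values of that gene, and none of these shares was tested.

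The second question was whether channel mRNA differed between time points. In controls, 0 of 39 genes passed for ZT20 versus ZT8, beside 0.115% of all genes, and 4 (10.3%) had an unadjusted p under 0.05, all 4 lower at ZT20, beside 8.25% of all genes. In *ChAT-BKO* neurons 0 passed, beside 0.285% of all genes, and 2 (5.13%) had an unadjusted p under 0.05, beside 9.42% of all genes. DESeq2 and limma voom called 0 in both, with 4 and 4 at an unadjusted p under 0.05 in controls and 2 and 4 in *ChAT-BKO*.

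In controls, *Kcng4* had a log2 fold change of -0.14 for ZT20 over ZT8 (SE 0.06, edgeR adjusted p = 0.506), with 3 of 6 libraries at ZT20 below all those at ZT8. *Kcng1* had -0.18 (SE 0.08, edgeR adjusted p = 0.595). In *ChAT-BKO* neurons, *Kcng4* had -0.04 (edgeR adjusted p = 0.903), *Kcnh1* 0.34 (SE 0.10, adjusted p = 0.191), *Kcnh6* -0.44 (SE 0.20, adjusted p = 0.482) and *Kcnh5*, another EAG gene, -0.31 (SE 0.15, adjusted p = 0.546).

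Over both genotypes 0 of 39 passed, beside 2.62% of all genes, and 9 (23.1%) had an unadjusted p under 0.05, 3 higher and 6 lower at ZT20, beside 14.3% of all genes. *Kcng3*, at a mean of 0.67 CPM, was among the 9. DESeq2 called *Kcnd1* (log2 fold change -0.11, adjusted p = 0.0274) and limma voom none, with 8 and 9 genes at an unadjusted p under 0.05. In edgeR *Kcnd1* averaged 70.3 CPM at ZT8 and 65.8 CPM at ZT20 (log2 fold change -0.10, adjusted p = 0.127), *Kcng4* had -0.09 (adjusted p = 0.262) and *Kcnf1*, the gene of the silent subunit Kv5.1, 0.30 (adjusted p = 0.216).

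The difference between the genotype effects at ZT20 and ZT8 was called for 0 of 39 channel genes and for 0% of all genes in edgeR, and for 0 genes by DESeq2 and limma voom. An unadjusted p under 0.05 was reached by 1 channel gene (2.56%) in each of the 3 tools, beside 3.9% of all genes in edgeR. That gene was *Kcnh1* in edgeR, with a difference of 0.43 on the log2 scale (SE 0.15, edgeR adjusted p = 1). *Kcnh6* had a difference of -0.45 (SE 0.23) and *Kcns1* of -0.41 (SE 0.23), both with an edgeR adjusted p of 1. The comparisons share libraries and are not independent of each other.

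A setting that added calls was the slope of expression on gene length in each library (both as log2), which ran from 0.163 to 0.370 and overlapped between all 4 groups. With this slope as a covariate, *Kcng4* and *Kcnc4* were called at ZT8 (2 of 39 genes) and 5 genes over both times, which were *Kcnc4*, *Kcnd1*, *Kcng4*, *Kcnh2* and *Kcnv1*. For time, 3 genes were then called in controls, *Kcng4* among them, *Kcnh1* in *ChAT-BKO*, and 4 over both genotypes, *Kcnd1* and *Kcng4* among them. It also raised the calls over all genes, from 40 to 164 at ZT8 and from 570 to 1535 for time over both genotypes.

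Genes that work beside these channels were counted in the same comparisons. Of 17 accessory subunit genes (such as *Kcnab*, *Kcnip* and *Dpp* genes), 0 were called by edgeR in any of the 7 comparisons, and at most 3 had an unadjusted p under 0.05 in a comparison. Of 10 genes that cluster or anchor the channels, such as *Cntnap2* and *Dlg4*, 0 were called and at most 1 had an unadjusted p under 0.05. Of all genes tested, 0% to 2.62% were called over the 7 comparisons, and 3.9% to 14.3% had an unadjusted p under 0.05. For lists of 17 and 10 genes, counts of 0 called are near these shares and are no result about the lists. Among 40 genes of other potassium channel families, *Kcnk1*, a two-pore leak channel gene, was called for genotype over both times (log2 fold change 0.19 with an edgeR adjusted p = 0.0488) and for time (0.26, adjusted p = 0.00133), and *Kcnk3* for time (-0.11, adjusted p = 0.0403). These *Kcnk* genes were named after their values were seen.

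Exons of 9 of the 39 channel genes overlap those of a gene on the other strand, among them *Kcna6*, *Kcnd3* and *Kcnq1*, and how strand was used in counting is not given in the sources used here, so these values are less certain. *Kcng4*, *Kcnd1*, *Kcnv1* and *Kcns1* have no such overlap in the annotation. The channel genes on the chromosome of *Bmal1* lie at least 30.0 Mb from it, and neither *Kcng4* nor *Kcnd1* is on that chromosome.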

How the data were processed

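Cholinergic neuron mRNA was measured by RNA-seq in 24 IP libraries and 1 pooled input. Per the labels and the methods, the authors aligned reads with STAR 2.7.5 to mm10 and estimated counts with RSEM. The authors deposited expected counts without normalization, which were rounded here (6.12% were not whole). Groups and replicate numbers come from the labels, in which each IP is a biological replicate. Replicate libraries differed by 1.80 to 25.4 in chi-square per degree of freedom, above sampling noise. Total counts of 4.04 to 31.7 M set the precision, and other columns left out numbered 0.

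Genes reaching 10 counts over the IPs together were tested in R 4.3.3 with edgeR 4.0.16 (TMM, quasi-likelihood test, two-sided, Benjamini-Hochberg over 21738 genes, called at an adjusted p under 0.05). Comparisons of 2 groups used their 12 libraries, and effects over both times or genotypes and the difference of effects used all 24. SE came from the F statistic. Log2 ratios to the input used a prior of 0.5 counts. Lengths came from GENCODE M21, and start site windows from RefSeq. The fits were tested on simulated data. The smallest exact permutation p for 6 against 6 is 0.00216.

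The genes and lists were chosen with earlier results of these data known. Named with a test were the genes called in any comparison, *Kcng4*, and the 3 with the smallest p in each comparison, and by level the first of each subfamily and the 5 highest and lowest. *Kcnh2*, *Kcng1* and other genes given with intervals were named by level or after their values were seen. Some channel genes that this rule names are counted but not reported here. Marker lists covered cholinergic, fast or alpha and gamma or slow motor neurons, excitatory and inhibitory neurons, oligodendrocytes, astrocytes, microglia, endothelium and skeletal muscle. Alternatives were DESeq2 1.42.0, its size factors in edgeR, no filter, filterByExpr, a replicate block, limma 3.58.1 voom with quality weights, all 24 libraries in a fit, length slope or muscle score as covariate, and each library left out. The time course, histology and splicing data were not used here.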

Additional observations from a re-analysis of the deposited data

Results flagged for a closer look

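A library stood apart from the other 5 of its group (a gap to its neighbour, relative to the group's range, above Dixon's 95% critical value) in 6 of 83 groups examined over 21 named channel genes. That critical value is passed by about 1 of 20 groups of normally distributed values. All 6 concerned genes of a mean under 1 CPM, where a few counts make the gap, so this rate cannot be set beside them. In control replicate 3 at ZT8, *Kcna10* and *Kcnq1* were each at 0.586 CPM, with the next libraries at 0.190 and 0.0948 CPM. *Kcna7* was at 0.243 CPM in *ChAT-BKO* replicate 4 at ZT8 and at 0.0633 CPM in control replicate 1 at ZT20, with 0 in the other 5 libraries of each group. *Kcnv2* was at 0.169 CPM in *ChAT-BKO* replicate 1 at ZT20, with 0 in the others. *Kcnh4* was at 0 CPM in *ChAT-BKO* replicate 5 at ZT20, with the next library at 0.132 CPM.

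*Kcna3*, a Kv1 gene best known from lymphocytes and microglia, was at 2.43 CPM in the pooled input, which enters no comparison between groups. It had 18 counts there and 1 count over the 24 IPs, and this left it outside the genes described.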

How the results depend on the processing

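No log2 fold change of a named channel gene turned sign under any alternative run. Counts of channel genes called moved as follows. With the length slope as covariate they were 2 at ZT8, 5 for genotype over both times, 3 for time in controls, 1 for time in *ChAT-BKO* and 4 for time over both genotypes. With the muscle score as covariate the count at ZT20 was 0. Without a filter the count for genotype was 1. The replicate block gave 1 for genotype, *Kcng4* alone (adjusted p of *Kcnd1* = 0.066 from edgeR), and changed no other count. Replicate numbers did not pair the libraries, since 16 of 36 same-numbered pairs had a correlation of deviations over 0.1, with a median of 0.008. DESeq2 gave 1 for time over both genotypes. Leaving out each library gave 0 to 1 genes at ZT20, 1 to 2 for genotype, and 0 in the other 5 comparisons. The median log2 ratio to the input was -0.27 with the input in the TMM scaling and -0.41 with a prior of 2 counts, and -0.74 to -0.69 with libraries left out. The summed level was 669 CPM per kb, and 744 CPM per kb with longest transcripts. Calls over all genes moved by over 1.5 times under DESeq2, from 40 to 70 at ZT8, 50 to 91 at ZT20, 142 to 225 for genotype, 25 to 127 for time in controls, 62 to 225 for time in *ChAT-BKO* and 570 to 872 for time over both genotypes. Other such shifts were the block, from 40 to 69 at ZT8 and 25 to 86 for time in controls, the full fit, from 62 to 140 for time in *ChAT-BKO*, the muscle score, from 50 to 19 at ZT20, and the length slope, from 50 to 168 at ZT20, 142 to 414 for genotype, 25 to 360 and 62 to 485 for time in controls and *ChAT-BKO*. The causes were not tested. Genes under 1 CPM rest on too few counts at this depth for a difference to be detectable.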
